A study of Rattus norvegicus with 4 samples.

Results

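The Egr, AP-1 and Atf3 early genes are transcription factor genes that cells switch on within minutes of a stimulus, together with 2 corepressors of the Egr factors. They were followed in the left ventricle of male rats of the Sprague Dawley stock in which 5/6 nephrectomy had removed most kidney tissue. The list held 10 genes: Egr1, Egr2, Egr3, Nab1, Nab2, Atf3, Fos, Fosb, Jun and Junb. Each gene was taken as the row of the expression table with that symbol, which gave 9 genes, each with 1 row, out of 22861 rows (loci) in all. The expression of Fosb was not analysed here. All 9 loci had been tested by the authors. The genes were picked because Egr1 and Egr2 were higher and Atf3 lower with anti-miR-21, so the values of this contrast are given as a description and support no further statement.

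The comparison asks how the heart of a rat with failing kidneys responds when miR-21-5p is blocked. All rats had surgery at 10 weeks of age and ate 0.4% Dyets chow. All were given an LNA (locked nucleic acid), a short modified oligonucleotide with high affinity for a complementary RNA, through the jugular vein. In the anti-miR-21 group the LNA was directed against miR-21-5p, and in the anti-scr group it had a scrambled sequence, each at 1 mg/kg in 3 daily doses. The courses fell in weeks 1 and 4 from the operation, and hearts were collected in week 7. Both groups were nephrectomised, so the comparison holds no rat with intact kidneys and none without an oligonucleotide. Each group had 2 libraries, each made from pooled RNA of 2 to 3 rats, with 47826514 to 54952098 reads, of which 94.0% to 94.4% mapped. The deposited table gave 1 FPKM value (fragments scaled to transcript length and to library size) per group and none per library, so no spread between pools could be computed, and the differences below have no error of their own beyond the authors' deposited p and q.

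In the absence of a stimulus these transcription factor genes are mostly silent or low, and growth factors, stretch, hormones and injury induce them through MAP kinases, serum response factor (SRF) and CREB. Egr1, Egr2 and Egr3 are zinc finger factors that bind the same GC-rich DNA motif, and Nab1 and Nab2 bind them and dampen their activity. Fos and Jun proteins pair to form AP-1, and Atf3, a related leucine zipper factor induced by many stresses, often represses the genes it binds. In heart muscle, several of them are known to be induced early by pressure load and by ischaemia.

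The oligonucleotide was directed against miR-21-5p, shown because it defines the contrast, with its seed (bases 2 to 8) in capitals; the sequence is that of RefSeq for the rat (GRCr8).
rno-miR-21-5p: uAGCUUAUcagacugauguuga
Promoter sequence was not used to choose the genes. The motifs searched include those bound by SRF and CREB, which are known to induce such genes, so the shares below are a description. RefSeq promoters, running from 250 bases before to 50 bases after the annotated start on GRCr8, were matched for 6 members by symbol: Egr1, Egr2, Nab1, Nab2, Fosb and Junb. The promoters of Egr1 (chr18:26736828-26737127, plus strand), Egr2 (chr20:21054392-21054691, minus strand) and Nab1 (chr9:56545392-56545691, plus strand) are printed because they held the matches described next, which stand in capitals.
Egr1: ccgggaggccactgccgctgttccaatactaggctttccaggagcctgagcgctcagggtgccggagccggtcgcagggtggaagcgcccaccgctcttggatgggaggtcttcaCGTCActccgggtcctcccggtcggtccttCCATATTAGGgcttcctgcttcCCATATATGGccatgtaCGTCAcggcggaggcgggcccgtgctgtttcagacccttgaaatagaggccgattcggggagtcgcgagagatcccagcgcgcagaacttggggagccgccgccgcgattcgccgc
Egr2: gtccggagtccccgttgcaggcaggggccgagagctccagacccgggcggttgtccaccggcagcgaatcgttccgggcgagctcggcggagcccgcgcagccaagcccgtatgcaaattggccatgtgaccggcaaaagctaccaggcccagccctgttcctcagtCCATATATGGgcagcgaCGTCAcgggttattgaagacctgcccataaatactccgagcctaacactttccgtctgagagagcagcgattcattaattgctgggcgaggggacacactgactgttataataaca
Nab1: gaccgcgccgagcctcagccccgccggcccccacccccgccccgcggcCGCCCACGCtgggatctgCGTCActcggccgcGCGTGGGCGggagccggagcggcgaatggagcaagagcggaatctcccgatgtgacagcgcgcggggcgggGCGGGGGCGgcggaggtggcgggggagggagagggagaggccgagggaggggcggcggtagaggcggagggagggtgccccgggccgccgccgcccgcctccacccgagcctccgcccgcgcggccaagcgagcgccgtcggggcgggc
Positions are counted so that the last base before the annotated start is -1. In Egr1 and in Egr2, 1 copy of CCATATATGG, a CArG box (the core of the serum response element that SRF binds), ran from -83 to -74 in both genes. The short core of the cyclic AMP response element (TGACG, found here as its reverse complement CGTCA) ran from -66 to -62 in both. Egr1 had a further CArG box, CCATATTAGG, from -105 to -96 and a further short core from -135 to -131. Of all 33469 RefSeq promoters of this length, 1.64% held a CArG box, 0.0209% held 2 or more, and 0.272% held both a CArG box and a short core. The short core alone was in 21.2% of promoters.

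Nab1 had 3 matches to the EGR motif (GCGTGGGCG or GCGGGGGCG, either strand), from -202 to -194, from -170 to -162 and from -99 to -91. At least 1 such match was in 3.20% of all promoters and 3 or more were in 0.0478%. The short core CGTCA stood from -184 to -180. The promoter was also GC-rich, at 81.7% G and C against a median of 51.7%, and 99.5% of promoters had a lower content. The EGR motif is itself mostly G and C, and its shares were not taken over promoters of like content, so they do not set the matches apart from that content. Nab2, with 73.3% G and C, and Fosb held none of the motifs searched, and Junb held 1 short core (-155 to -151). The full response element TGACGTCA (in 1.83% of promoters), the AP-1 motif TGACTCA or TGAGTCA (4.63%) and the CARE motif TGATGNAA of the amino acid and stress response (3.98%) had no match in these 6 windows. Promoters of Egr3, Atf3, Fos and Jun were not searched, so the absence says nothing about them. A match is a stretch of letters and does not show that a factor binds there.

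**Figure D1:**
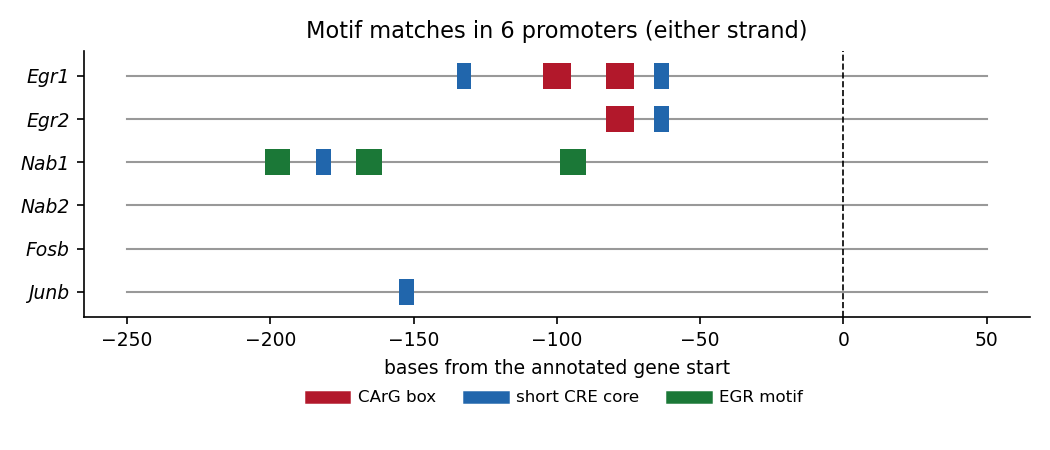
Motif matches on either strand in the promoters of 6 genes; the x axis is the distance in bases from the annotated gene start (dashed line) and each row is 1 promoter. Egr1 and Egr2 share a CArG box at -83 to -74 and a short core at -66 to -62, and Nab1 carries 3 EGR motifs.

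The 3 Egr genes were all higher with anti-miR-21. Egr1, the most abundant of them, was at 22.4 FPKM in the control group and 39.2 in the inhibitor group (log2 fold 0.81; rn5 chr18:27368986-27372952). Egr2, known for its part in Schwann cell myelination and in myeloid cells, went from 1.63 to 4.98 FPKM (log2 fold 1.61; chr20:24551934-24556227). Egr3, known for its part in muscle spindles and T cells, went from 1.54 to 3.28 FPKM (1.09; chr15:55482684-55488053). In FPKM, the gain was 16.8 for Egr1, 3.35 for Egr2 and 1.73 for Egr3, so most of the added Egr RNA per length was Egr1 although its fold was the smallest. Summed over the 3 genes the level went from 25.6 to 47.5 FPKM (log2 fold 0.89), and the share of Egr1 in that sum was 87.6% in controls and 82.6% after the inhibitor. The share of Egr2 was 6.35% and 10.5%. The family's other gene, Egr4, was listed at 0 in both groups. In the authors' deposited table Egr1 and Egr2 had a q of 0.0131 and Egr3 one of 0.0580 (p = 0.00055), which lay just over the threshold of 0.05.

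The corepressors differed less in value. Nab1 was at 13.5 FPKM in controls and 18.4 after the inhibitor (log2 fold 0.45; p = 0.0237 and q = 0.408 in the authors' deposited table), and Nab2 at 11.0 and 12.0 FPKM (0.12), with a q of 0.949 in the authors' deposited table. Nab2 shares its position in the table (chr7:71118483-71144095) with Stat6, which has a row of its own (4.52 and 3.71 FPKM). The 2 corepressors summed went from 24.5 to 30.4 FPKM (log2 fold 0.31), below the log2 fold of the Egr sum. The ratio of the Egr sum to the Nab sum, both per length, was 1.04 in controls and 1.56 after the inhibitor. No test of this ratio was possible with 1 value per group.

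Atf3 moved in the other direction. It was at 25.9 FPKM in controls and 13.4 after the inhibitor (log2 fold -0.94; chr13:114411694-114468328), and its q in the authors' deposited table was 0.0131. With anti-scr Atf3 was close to Egr1 in level, at an Egr1 to Atf3 ratio of 0.867, and with anti-miR-21 that ratio was 2.92. Relative to Jun, a leucine zipper partner of Atf3, its level was 0.737 and 0.403.

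Of the 3 AP-1 genes, Fos was higher and Jun and Junb lower in value, and none was called. Fos stood at 17.8 and 22.1 FPKM (log2 fold 0.31), Jun at 35.1 and 33.3 FPKM (-0.07) and Junb, which can restrain Jun, at 3.48 and 2.59 FPKM (-0.43, with 12.6% of tested loci lower in fold). Their q in the authors' deposited table ranged from 0.702 to 0.967, which does not show that they were equal. Jun was the most abundant Jun gene in both groups, at 53.2% and 54.6% of the summed level of Jun, Junb and Jund, and Fos made up 92.7% and 97.3% of the sum of Fos, Fosl1 and Fosl2. The position of Jun in the table (chr5:117957729-117977833) is 6.50 times as long as the RefSeq gene, and 3 rows without a symbol overlap it, each at 4.40 FPKM or less in both groups.

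**Figure D2:**
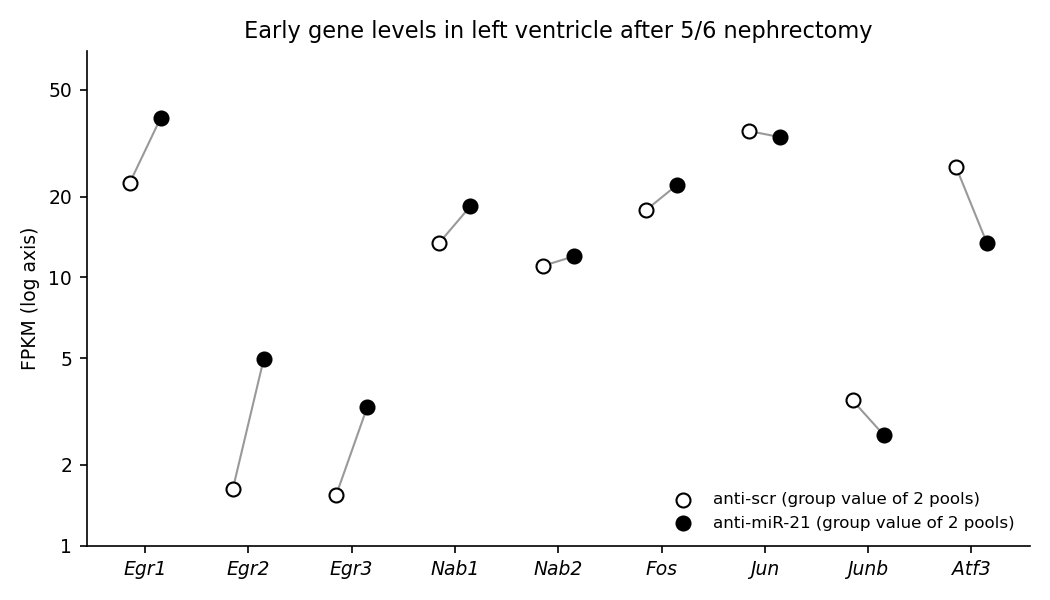
FPKM on a log axis of the 9 genes in the anti-scr group (open) and the anti-miR-21 group (filled), 1 deposited group value of 2 pools each, with no error available. The 3 Egr genes are higher with anti-miR-21 (Egr1 22.4 to 39.2), and Atf3 is lower (25.9 to 13.4).

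The order of the levels changed with the group. With anti-scr it was Jun, Atf3, Egr1, Fos, Nab1, Nab2, Junb, Egr2 and Egr3 from the highest to the lowest, and with anti-miR-21 it was Egr1, Jun, Fos, Nab1, Atf3, Nab2, Egr2, Egr3 and Junb. Which neighbours in either order differ beyond the spread between pools could not be computed from group values. By mean FPKM, Jun exceeded 79.4% of the 12876 tested loci and Egr3 exceeded 18.7%, so Egr2, Egr3 and Junb belonged to the low range.

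Of the 9 genes, 6 were higher and 3 lower in value, and the median log2 fold was 0.31, beside a median of 0.02 and 6841 higher to 6035 lower among all tested loci. With q under 0.05 in the authors' deposited table there were 3 of them, 2 higher and 1 lower, where the background was 0.186% of tested loci higher and 0.629% lower, or 0.815% in either direction; since the genes were picked from this contrast nothing is read from that. An unadjusted p under 0.05 in the authors' deposited table was found for 4 higher genes and 1 lower gene, against a background of 3.18% and 6.11%, or 9.3% in either direction. The p of Egr1, Egr2 and Atf3 was 5e-05 in the authors' deposited table, the smallest p there, shared by 49 loci, so p and q do not rank these 3 genes among themselves. The log2 fold of Egr2 exceeded that of 99.7% of tested loci, that of Egr3 99.0% and that of Egr1 97.8%, and the fold of Atf3 exceeded 1.81%. Among the 91 called loci with 1 symbol and a mean FPKM of at least 1, Egr2 had the largest of 20 higher folds, Egr1 stood at rank 18 of them and Atf3 at rank 28 of the 71 lower ones. Bmp10, named after its value was seen, was called with a larger fold (3.69) but lay under that minimum (mean 0.741 FPKM). These ranks use the folds by which the genes were picked and are a description. The called genes nearest to Egr2 in log2 fold were the lectin genes Reg3b (1.49) and Reg3g (1.48), those nearest to Egr1 were the matrix genes Vcan (0.81) and Spp1 (0.79), and those nearest to Atf3 were the G protein subunit gene Gnb3 and the skeletal actin gene Acta1 (both -0.95). With 2 group values, likeness means only an equal ratio.

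**Figure D3:**
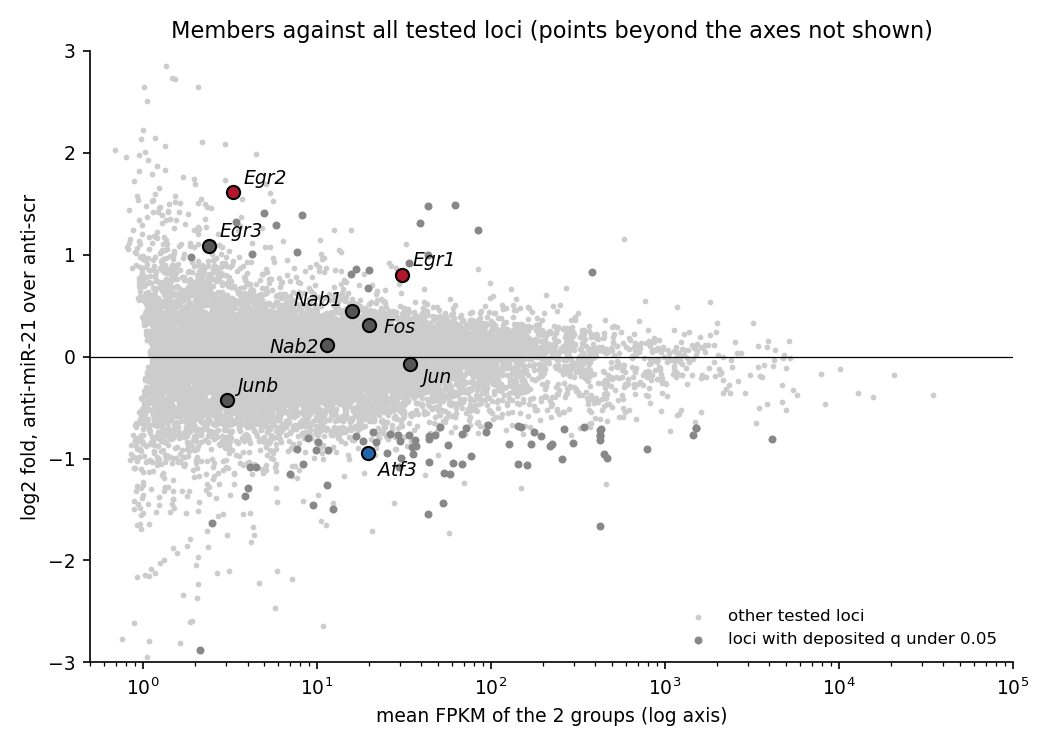
Log2 fold (anti-miR-21 over anti-scr) against the mean FPKM of the 2 groups on a log axis for all tested loci, with the 9 genes named (red and blue: deposited q under 0.05, higher and lower). Egr2 (1.61), Egr3 (1.09) and Egr1 (0.81) lie at the upper edge and Atf3 (-0.94) at the lower edge, while Jun, Nab2 and Fos lie within the bulk.

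The other immediate early genes, induced by the same kinds of stimuli, held no call. Of 36 listed, 32 were tested, of which 19 were higher and 13 lower in value with a median log2 fold of 0.08, and 0 had a q under 0.05 in the authors' deposited table (a Cuffdiff test). With 0.815% of all tested loci called, a list of this size need hold none. Without adjustment, p in the authors' deposited table was under 0.05 for 6 higher genes and 1 lower gene, where the background was 3.18% of tested loci higher and 6.11% lower. The higher ones were, named after their values were seen, Ptgs2 (1.02 to 1.98 FPKM, log2 fold 0.96), which makes prostaglandins, the NF-kB cofactor gene Nfkbiz (6.04 to 9.96 FPKM, 0.72), Dusp6 (0.47), Klf10 (0.47), Ctgf (0.44) and Klf4 (0.42), and the lower one was the synaptic gene Arc (1.24 to 0.608 FPKM, -1.03). The most abundant of the list were the matricellular gene Ctgf (146.6 and 199.1 FPKM) and the small GTPase gene Rhob (129.4 and 133.0 FPKM, 0.04). The 3 Nr4a nuclear receptor genes, which the same stimuli induce, had folds of -0.25 (Nr4a1), 0.13 (Nr4a2) and -0.16 (Nr4a3).

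Upstream of these genes, Map2k2, which encodes the MAP kinase kinase MEK2, fell from 28.2 to 15.7 FPKM (log2 fold -0.84, with a q of 0.0318 in the authors' deposited table). It was the 1 called gene of 18 tested on the list of SRF, ternary complex factors, CREB and MAP kinases, of which 9 were higher and 9 lower in value with a median of -0.03. Of all tested loci, 0.629% were called lower and 0.815% were called in either direction, and nothing about the list is read from 1 call. Srf itself stood at 26.6 and 21.9 FPKM (-0.28), Map2k1, the gene of the paired kinase MEK1, at 49.4 and 55.5 FPKM (0.17), and Mapk3 at 43.9 and 34.1 FPKM (-0.37); these 3 are named after their values were seen, and none of them had a q under 0.05 in the authors' deposited table. Mkl1, Mkl2, Mapk8 and Braf were not analysed here, and Elk1 shares a row with other genes.

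Among 9 tested partners of AP-1, 4 were higher and 5 lower in value with a median of -0.12, 0 were called in the authors' deposited table (Cuffdiff) and 1 was higher at an unadjusted p under 0.05 (Maf, 11.0 to 14.9 FPKM, named after its value was seen). The most abundant were Jund (27.4 and 25.2 FPKM, -0.12) and the small Maf gene Mafk (20.5 and 18.2 FPKM, -0.17). Fosl1 and Fosl2 were under 1 FPKM in both groups and had not been tested. On the list of ATF, CREB and integrated stress response genes, the setting in which Atf3 is often induced, 22 were tested, 13 were higher and 9 lower in value with a median of 0.07, and 0 passed either threshold (q, or an unadjusted p under 0.05) in the authors' deposited table (Cuffdiff). For both lists, the shares over all tested loci were 0.815% called and 9.3% with an unadjusted p under 0.05, so lists of these sizes need hold no call. Atf4, which drives Atf3 in that response, stood at 195.6 and 194.5 FPKM (-0.01), the chaperone gene Hspa5 at 510.9 and 604.7 FPKM (0.24) and Ddit3, named after its value was seen, at 67.3 and 59.1 FPKM (-0.19).

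Genes reported as targets of EGR factors showed no common direction. Of 16 tested, 8 were higher and 8 lower in value with a median log2 fold of 0.00, 0 were called in the authors' deposited table (Cuffdiff), and an unadjusted p under 0.05 was found for 3 higher genes and 1 lower gene. Beside this list and the next, 0.815% of all tested loci were called. At an unadjusted p under 0.05 the background was 3.18% of tested loci higher and 6.11% lower. The 2 most abundant were Vegfa (148.9 and 148.5 FPKM, 0.00) and Tnf, whose 5 rows lie in 1 long position of the histocompatibility region, so that its value of 82.6 and 91.4 FPKM is uncertain. Named after their values were seen, the genes with an unadjusted p under 0.05 in the authors' deposited table were Il1b (1.97 to 3.72 FPKM, 0.92), the hyaluronan receptor gene Cd44 (8.24 to 12.3 FPKM, 0.58), Thbs1 (17.5 to 23.5 FPKM, 0.43) and, lower, the cell cycle inhibitor gene Cdkn1a (75.8 to 56.8 FPKM, -0.41). Of 10 tested genes reported as AP-1 targets, 2 of which (Cd44 and Il1b) are also on the EGR list, 8 were higher and 2 lower in value with a median of 0.32. None of these 10 was called in the authors' deposited table (Cuffdiff), and 3 higher genes but 0 lower ones had an unadjusted p under 0.05, the third being the chemokine gene Ccl2 (18.7 to 34.7 FPKM, 0.89), with a q of 0.0550. The most abundant were Vim (272.7 and 322.4 FPKM, 0.24) and Timp1 (38.2 and 42.0 FPKM, 0.14).

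**Figure D4:**
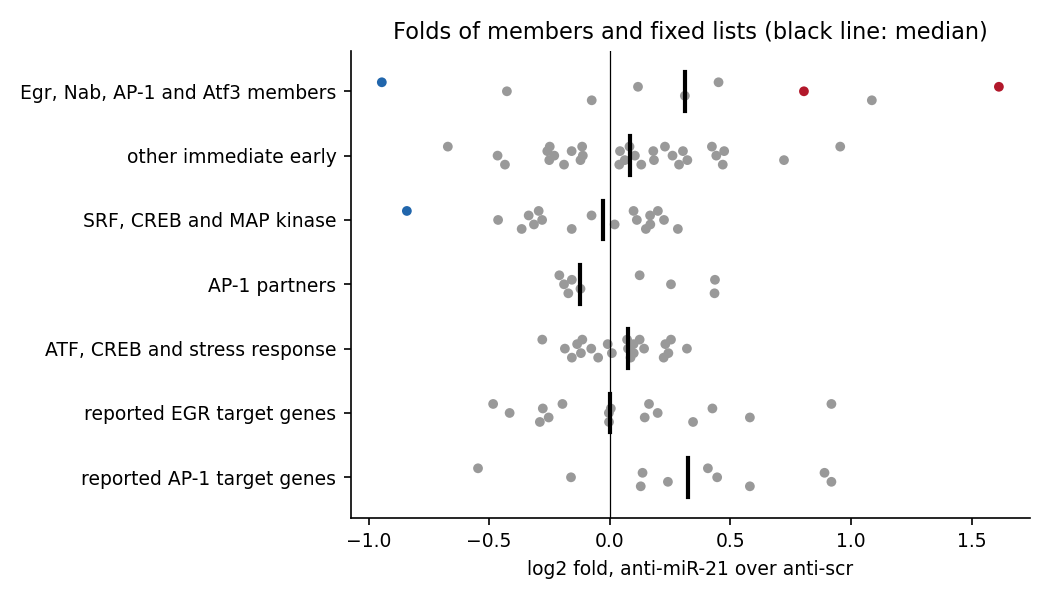
Log2 folds (x axis) of the 9 genes and of 6 lists of related genes with a mean FPKM of at least 1, 1 point per gene, with the median as a black line and genes of deposited q under 0.05 in red (higher) or blue (lower). The list medians run from -0.12 to 0.32, and the 1 called gene outside the members is Map2k2 (-0.84).

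In bulk tissue, fewer cells of a type and less RNA per cell cannot be told apart. The label left ventricle went with very high cardiomyocyte transcripts (Myl2 at 39354 and 30217 FPKM), and 7 of 8 cardiomyocyte markers were lower in value with anti-miR-21 (summed level 74942 and 56522 FPKM). One of them was called, the light chain gene Myl3, which fell from 5253 to 3000 FPKM (log2 fold -0.81, with a q of 0.0131 in the authors' deposited table). The value counted for Myh6 (1336 and 804 FPKM) is that of a row shared with Myh7. All 5 atrial markers were higher in value (2271 and 3295 FPKM summed). The called one was Sln, which encodes the calcium pump regulator sarcolipin and rose from 50.3 to 119.3 FPKM (1.25, q = 0.0131 in the authors' deposited table). All 9 fibroblast markers were also higher in value (2037 and 2664 FPKM), and the matrix gene Postn was called (22.4 to 55.8 FPKM, 1.31, q = 0.0131 in the authors' deposited table). For macrophages, 8 of 10 tested markers were higher (344.3 and 445.3 FPKM summed), and Csf1r (-0.10) and C1qa (-0.25) were lower. Lyz2 was the largest value in that sum (165.4 and 250.7 FPKM). Of tested Schwann cell markers 5 of 6 were higher (81.5 and 102.6 FPKM for the list), and Cdh19 (-0.02) was lower. Pmp22 made up most of that sum (58.9 and 71.8 FPKM), and Prx, not tested, was lower in value (0.636 and 0.371 FPKM). Sox10, which defines the Schwann cell lineage, was at 0.554 and 0.431 FPKM. Lymphocyte markers summed to 24.3 and 29.6 FPKM, with all 4 tested higher, and the neutrophil genes S100a8 and S100a9 were both higher (50.02 and 95.9 FPKM for the list), with Mpo listed at 0 in both groups. S100a8 and S100a9 made up most of that sum. The other neutrophil markers, Csf3r (0.411 and 0.478 FPKM) and Cxcr2 (0.360 and 0.604 FPKM), were not tested. S100a9 was called (29.2 to 58.1 FPKM, 0.99, with a q of 0.0318 in the authors' deposited table), and no marker of the other cell types was. The share called over all tested loci was 0.815%. Adipocyte markers summed to 1.27 and 3.18 FPKM. For endothelial cells 5 of 6 markers were lower (314.7 and 308.8 FPKM summed), and Tek (0.29) was higher. For mural cells 5 of 7 were lower, and Cnn1 (0.05) and Rgs5 (0.22) were higher. Rgs5 (473.7 and 550.7 FPKM) made up most of the mural sum of 713.9 and 749.3 FPKM. The part of these cell markers in the Egr and Atf3 values was not tested.

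The folds of all expressed loci were lower where genes lie close together, so the surroundings of each gene were counted. Density counts the loci with a symbol whose midpoints lie up to 500 kb away in either direction, and the median log2 fold of expressed loci was 0.14 in the lowest of 4 density groups (0 to 6 loci) and -0.23 in the highest (21 to 70). Egr3, with 22 such loci, lay in the densest group and had a log2 fold of 1.09. Egr2, with 6, lay in the least dense group and had one of 1.61. Egr1 (14 loci), Fos (13) and Atf3 (13) lay in the third group, whose median was -0.03, and had folds of 0.81, 0.31 and -0.94. Jun and Nab1 lay in the least dense group (6 loci each), and Nab2 (29) and Junb (28) in the densest. The places of Egr3 and Nab2 rest on the window: within 500 kb they exceeded 77.8% and 87.4% of expressed loci in density, but within 250 kb 59.9% and 74.1%, outside the densest group. Around each gene, 3 to 20 expressed named loci lay within 500 kb, 98 in all, of which 0 were called in the authors' deposited table (Cuffdiff) and 6 had an unadjusted p under 0.05. Over all tested loci these shares were 0.815% and 9.3%, so neither count over the 98 loci stood above the background. Of those 6, 4 lay among the 20 loci around Junb, 1 around Egr3 and 1 around Fos. The 9 loci around Egr1 had log2 folds from -0.13 to 0.57, the 4 around Egr2 from -0.08 to 0.39, the 16 around Egr3 from -0.34 to 0.52, and the 9 around Atf3 from -0.45 to 0.20. Those around Nab1 ran from -0.23 to 0.36, around Nab2 from -0.57 to 0.39, and around Fos from -0.45 to 0.44. Around Jun they ran from 0.23 to 0.29 and around Junb from -0.75 to 0.61. Since Egr1, Egr2 and Atf3 were picked for their folds, nothing is read from their distance to these ranges.

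**Figure D5:**
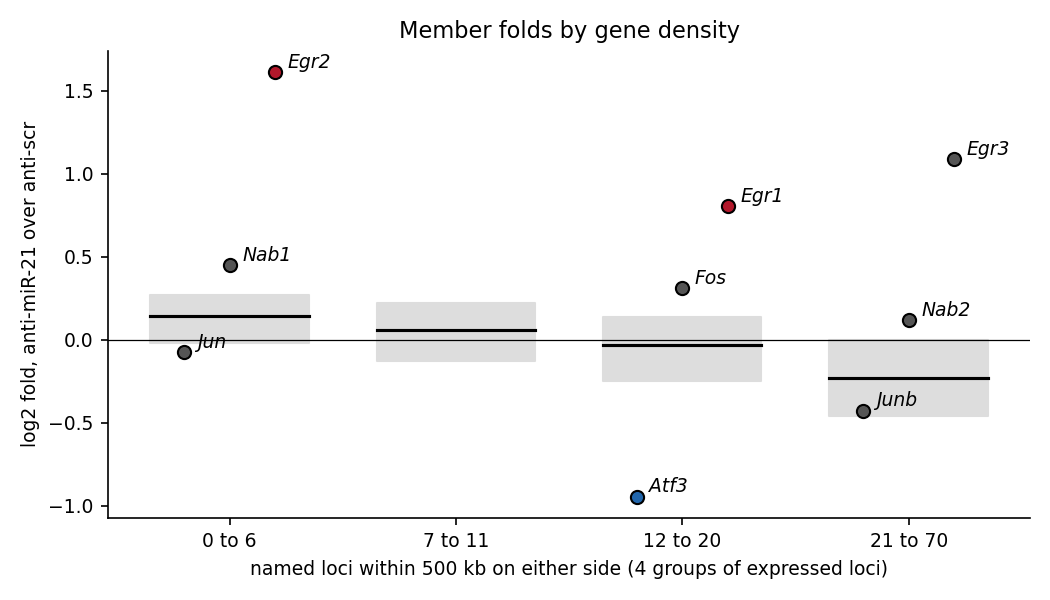
Log2 fold of the 9 genes by the count of loci with a symbol up to 500 kb away in either direction (x axis), with expressed loci split into 4 groups; grey boxes span the interquartile range of each group and black lines are medians (0.14 in the sparsest and -0.23 in the densest). The points show where each gene lies by density (Egr2 in the sparsest group at 1.61, Egr3 in the densest at 1.09); the genes were picked by fold, so their distance from the boxes is no finding.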

How the data were processed

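RNA was sequenced from pooled left ventricle of rats given anti-scr or anti-miR-21. Per the submitters' processing notes, reads were handled with cutadapt, TopHat2 2.0.10, Cufflinks 2.0.10 and Cuffdiff on rn5; the annotation and the settings are not given in the sources used here. The deposited FPKM values came as 1 value per group, with p-values and q-values from the authors' own test. A deposited table gave the count of reads and the percent of reads mapped per library. Where FPKM is scaled to the total of reads, a change of very abundant transcripts shifts all other values. How the libraries were scaled here is not known.

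In 97 of 22861 loci with several gene names, shifted cells were realigned. Folds are the log2 ratio of the inhibitor group to the control group, computed with Python 3.11.15 and pandas 2.3.3. Tested loci (12876) were those not listed with a statistic of 0 and a p and q of 1, and Benjamini-Hochberg adjustment over them returned the deposited q to within 5.2e-07. A locus was called at q under 0.05. The adjustment was tested on simulated data. The per-library fit foreseen could not be made on group values.

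The members, lists and motifs were chosen with earlier results of these data known. Genes named are the members, the called genes of each list or else, for the pathway lists, the 2 most abundant, and the 2 called genes nearest in fold to Egr2, Egr1 and Atf3; others are marked as named after their values were seen, apart from cell markers and genes of the same family. List medians use a mean FPKM of at least 1. Some listed genes are not reported here by name. Positions are those of the deposited table.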

Additional observations from a re-analysis of the deposited data

How the results depend on the processing

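Taking log2(FPKM + 1) or log2(FPKM + 0.1) cannot change the direction of a fold. Summing over loci changed nothing, because each of the 9 genes has 1 row. Recentring on the median of expressed loci is a shift of 0.03, less than the smallest fold (Jun, -0.07). The directions of the 9 genes and of their median log2 fold (0.31) were therefore bound to hold, and only the sizes of the folds could change. With log2(FPKM + 1) the fold of Egr2 was 1.19, of Egr3 0.75 and of Junb -0.32. At q under 0.01, 0 loci, 0 members and 0 genes of the pathway lists were called in the authors' deposited table (Cuffdiff), since its lowest q is 0.0131; at an unadjusted p under 0.05 the counts were 1197, 5 and 14, against 105, 3 and 1 at q under 0.05. At q under 0.1 there were 169 loci, 4 members (with Egr3) and 2 list genes (Map2k2 and Ccl2). With a log2 fold of at least 1 also required, 41 loci, 1 member (Egr2) and 0 list genes were left. The median of the EGR target list lies so close to 0 that recentring turns its sign (to -0.02), and that of the SRF, CREB and MAP kinase list goes from -0.03 to 0.02 with no FPKM minimum.

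No paired analysis was possible because the table holds 1 value per group, and leaving out a replicate could not be run for the same reason. Group values hide the spread between pools, and the depth behind each value is unknown.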
